A study of Homo sapiens with 58 samples.

Results

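The arsenite response of HuR binding close to a nuclear peroxidase was measured in 8 CLIP-seq libraries of the 58 in the series. They are the streptavidin-enriched libraries of the APEX-NLS line, chosen by their labels, with 4 libraries from mock-treated cells and 4 from cells given sodium arsenite. The series mapped where in the cell HuR meets its RNAs, with peroxidases placed in the nucleus (APEX-NLS), the cytoplasm (APEX-NES) or stress granules (APEX-G3BP1) and with nuclear and cytoplasmic fractions for comparison. All cells were Huh-7.5, a line from a hepatocellular carcinoma, and all 8 libraries shared the APEX-NLS genotype, 0.5 mM biotin phenol for 30 minutes, 1 mM hydrogen peroxide for 1 minute, and UV crosslinking at 400 and then 200 mJ per square centimetre. The 4 arsenite libraries differed from the 4 mock libraries in 0.5 mM sodium arsenite for 45 minutes. Biotin phenol was added 30 minutes before harvest. The labels do not say whether the line is 1 clone, which promoter drives the peroxidase, or whether libraries came from separate cultures. The p-values may therefore measure technical spread only. The nuclear fraction used for comparison, 3 mock and 3 arsenite libraries, came from wild-type Huh-7.5 cells labelled as without the APEX reaction, and so without hydrogen peroxide, itself an oxidant, or biotin phenol as far as the labels say.

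HuR, encoded by ELAVL1, is an RNA-binding protein that recognises U-rich and AU-rich stretches, lies mostly in the nucleus, and shuttles to the cytoplasm, where it is known for stabilising labile mRNAs. In the nucleus it meets introns of unspliced transcripts as well as 3'UTRs of finished mRNAs. Arsenite is an oxidative stressor that blocks translation and drives mRNAs into stress granules. In CLIP, UV light joins protein to RNA, the protein is precipitated, and each sequenced RNA fragment counts as a tag. In the enriched libraries a second capture on streptavidin keeps complexes that were biotinylated near the peroxidase. A tag count rises with the amount of an RNA as well as with its occupancy by HuR, and these cannot be told apart here.

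Tags were counted over 387214 peaks of 20 nt and summed per gene and annotation class, such as the 3'UTR peaks or the intron peaks of a gene, giving 30217 sums, of which 17060 held a tag in an NLS enriched library. Levels are given as CPM, tags per 1000000 tags of the library. The 8 libraries held between 72101 and 528719 tags in total and between 12474 and 35859 in peaks, so that 1 tag was worth from 1.89 to 13.9 CPM. Libraries 1 and 2 of each treatment belong to set JL0388 and libraries 3 and 4 to set JL1024. Coordinates are printed as in the authors' table, with GRCh38.p14 as the build named in the submitters' processing notes. The sets stood far apart, with 50.5 to 53.7% of tags in introns in JL0388 and 25.8 to 32.2% in JL1024, and with rRNA at 0.0363 to 0.160% against 3.73 to 6.09%. Set was balanced over treatment and entered each model. Within JL0388, the gene sums of both libraries of a treatment did not differ beyond the sampling noise, with a chi-square per degree of freedom of 1.03 for mock (p 0.285) and 0.977 for arsenite (p 0.604) against 1.98 and 1.86 in JL1024. Whether each pair is 1 library deposited as 2 is not known. They were counted as 1 sample in means and SDs, which have n = 3, but as separate samples in the limma fits and in permutations over 8 libraries. Of 20 hepatocyte markers, 15 had a tag in these libraries, while 10 of 12 blood and stromal markers had none, PTPRC had 3 tags and COL3A1 had 1.

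The 3'UTRs held a larger share of tags in the arsenite libraries. In the mock libraries 3'UTRs held 10.56, 10.31, 8.35 and 10.60% of the tags in peaks, and in the arsenite libraries 13.06, 13.14, 13.67 and 15.66%. All 4 arsenite libraries lay above all 4 mock libraries. The difference in means was 3.93 percentage points, 2.67 within JL0388 and 5.19 within JL1024. Its exact permutation p (two-sided) was 0.0286, the smallest that 4 against 4 libraries can give, and 0.114 after Benjamini-Hochberg adjustment over the 8 classes tested. This test ignores the library set; permuting within sets gave an exact p of 0.0556, the smallest that allows. With the JL0388 pairs counted once the shares were 9.79% ± 1.25 and 14.1% ± 1.35 (SD, n = 3), and the exact p was 0.10, the smallest possible for 3 against 3.

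The nuclear fraction moved the same way. Its 3'UTR share was 11.7% ± 0.541 in mock and 19.2% ± 1.33 in arsenite (SD, n = 3), a difference of 7.51 points whose exact permutation p of 0.10 is the smallest that design allows. The unenriched inputs of the APEX-NLS line, 1 library per treatment and set, went from 17.1 to 24.1% in JL0388 and from 11.6 to 18.1% in JL1024. The enriched libraries thus had a lower 3'UTR share than their own inputs in both sets and under both treatments.

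Tags within 10 kb downstream of genes, a class that can hold transcripts running past annotated gene ends, followed the 3'UTRs at a lower level. Mock libraries held 1.11, 1.17, 1.03 and 0.897% of tags there and arsenite libraries 1.61, 1.60, 1.19 and 1.34%. The groups did not overlap, and the difference was 0.383 points with an exact permutation p of 0.0286, an adjusted p of 0.114, a within-set exact p of 0.0556 and, with pairs counted once, an exact p of 0.10. The nuclear fraction went from 1.25% ± 0.0336 to 1.78% ± 0.0467 (SD, n = 3). The inputs went from 1.21 to 1.69% in JL0388 and from 0.932 to 1.28% in JL1024.

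Small nucleolar RNAs, which guide the chemical modification of ribosomal RNA, showed a difference in JL1024, where they were abundant. Their share in JL1024 was 5.31 and 5.12% in mock and 2.66 and 2.13% in arsenite, against 0.176 and 0.403% and then 0.200 and 0.276% in JL0388. Both arsenite libraries of JL1024 lay below both mock libraries, by 2.82 points on average, while in JL0388 the treatments overlapped. Over all 8 libraries the difference of -1.44 points had an exact permutation p of 0.343, and it lay between -2.29 and -0.582 with each library left out. The JL1024 inputs went from 7.19 to 3.08%, and the nuclear fraction from 0.571% ± 0.0243 to 0.251% ± 0.0445 (SD, n = 3).

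Non-coding RNA tags were a smaller share in the arsenite libraries of each set. They made up 15.1 and 15.6% in JL0388 mock and 14.5 and 15.0% in arsenite, and 32.7 and 28.3% against 24.9 and 22.6% in JL1024. The treatments did not overlap in either set, with differences of -0.599 and -6.73 points and a within-set exact permutation p of 0.0556. Over all 8 libraries together they overlapped, and the exact permutation p was 0.40, as it was with pairs counted once. The nuclear fraction went from 14.1% ± 0.0692 to 13.2% ± 0.161 (SD, n = 3). The inputs went from 14.4 to 12.7% in JL0388 and from 29.8 to 22.6% in JL1024.

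Introns gave no common direction. In JL0388 the intron share was 53.7 and 52.7% in mock and 51.3 and 50.5% in arsenite, a difference of -2.28 points. In JL1024 it was 25.8 and 28.9% in mock and 31.4 and 32.2% in arsenite, a difference of 4.43 points. The nuclear intron share was 6.61 points lower with arsenite, the direction of JL0388. The unenriched inputs split by set as the enriched libraries did, from 48.0 to 42.6% in JL0388 and from 27.1 to 30.3% in JL1024. Set against 3'UTR tags alone, both sets ran alike: 3'UTRs made up 16.4 and 16.4% of 3'UTR plus intron tags in JL0388 mock and 20.3 and 20.6% in arsenite, and 24.4 and 26.8% against 30.3 and 32.7% in JL1024. This ratio was chosen after seeing the data. The share of a library's tags that lay in peaks at all was 14.1 to 17.3% in JL0388 and 5.93 to 6.96% in JL1024 and differed by 0.988 points between treatments, with an exact permutation p of 0.571.

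**Figure D1:**
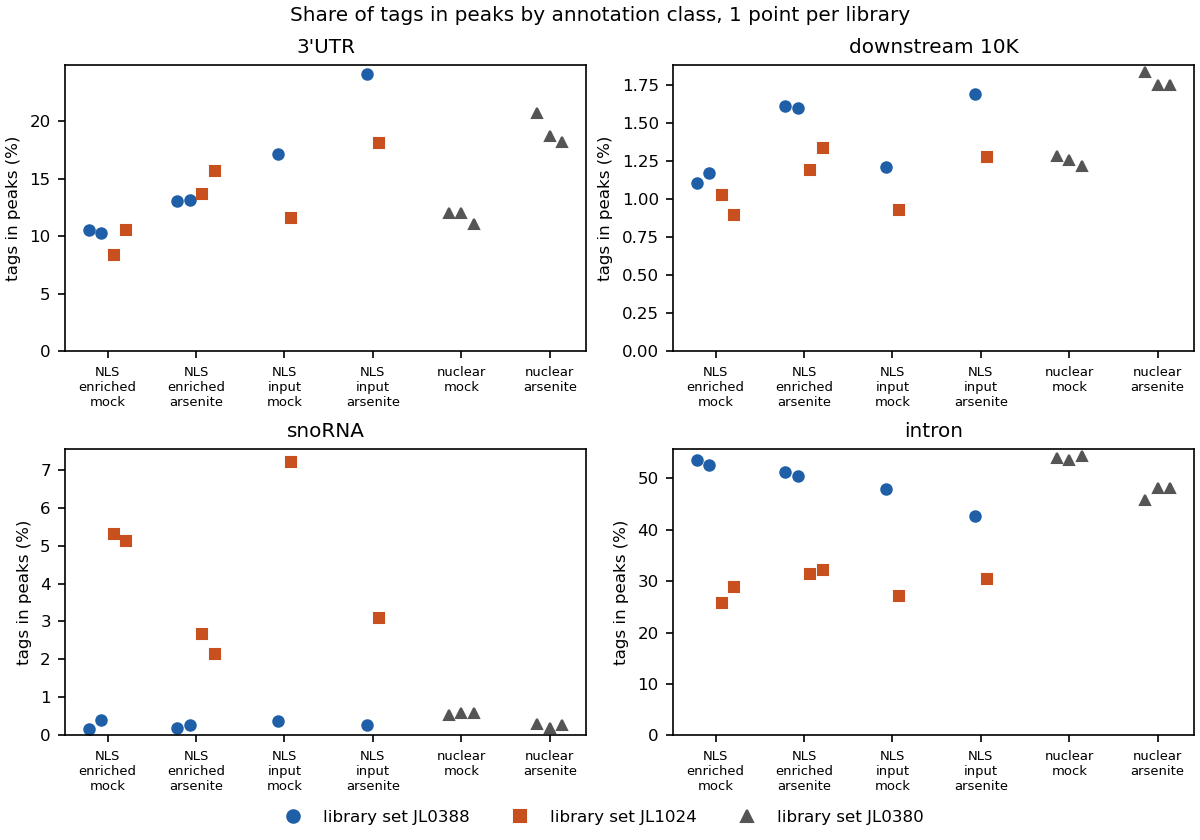
Share of tags in peaks (%, y axis) in 4 annotation classes for each library (1 point each), by group (x axis) and library set (colour and symbol). All 4 NLS enriched arsenite libraries sit above all 4 mock libraries for 3'UTRs and for the 10 kb downstream of genes, while snoRNA and intron tags differ more between sets JL0388 and JL1024 than between treatments.

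Single genes were compared with limma on log2(CPM + 3.68), with the set as covariate, over 5238 gene and class sums with tags in at least 4 of the 8 libraries. None passed a Benjamini-Hochberg adjusted p of 0.05 (0 of 5238, 0%). At an unadjusted p under 0.05 there were 345, of which 254 (4.85% of those tested) were higher and 91 (1.74%) lower with arsenite. The split depended on scaling: it was 210 against 108 after dividing by tags in peaks, 183 against 132 after centring on the median difference, and 149 against 110 with edgeR and TMM. Sums at 0 in all 4 libraries of a treatment passed the filter only through the other treatment and so had to differ: 15 of the 254 were at 0 in all mock libraries and 17 of the 91 at 0 in all arsenite libraries. The median log2 difference over all tested sums was 0.09, and 56.8% were positive. EdgeR's quasi-likelihood test on the same tags called 2 (0.0382%), the 3'UTRs of JUND and HMGCS1, each with an adjusted p of 0.0421. With edgeR and the tags of each JL0388 pair summed, an alternative added after seeing the data, no sum was called and 236 had an unadjusted p under 0.05.

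JUND, a member of the AP-1 transcription factor family, gave the larger of these responses in the nuclear fraction. Its 3'UTR level was 19.7, 0, 5.67 and 14.7 CPM in the mock libraries and 55.5, 17.8, 40.1 and 66.8 CPM in the arsenite libraries, resting on 0 to 7 tags per mock library and 4 to 23 per arsenite library. JL1024 separated the treatments, and in JL0388 the lower arsenite library lay below the higher mock library. The limma difference was 2.01 (SE 0.494) on the log2(CPM + 3.68) scale, with an adjusted p of 0.589. With pairs counted once the means were 10.1 ± 4.50 and 47.9 ± 16.5 CPM (SD, n = 3). One peak at chr19:18280036-18280056 on the minus strand of GRCh38.p14 held 74.2% of the 66 NLS enriched tags of this 3'UTR. The nuclear fraction held 55.9 ± 1.21 CPM there in mock and rose to 540 ± 48.2 CPM (SD, n = 3), by 3.25 on the log2 scale with limma (SE 0.0974, adjusted p 2.94e-09), and the APEX-NLS inputs went from 11.7 to 48.4 CPM in JL0388 and from 12.96 to 56.6 CPM in JL1024.

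HMGCS1 encodes the cytosolic HMG-CoA synthase of the sterol pathway. Its 3'UTR held 19.7, 0, 11.3 and 23.0 CPM in mock and 69.3, 84.7, 59.2 and 26.1 CPM in arsenite. The treatments did not overlap over the 8 libraries, with a narrow gap in JL1024. The limma difference was 2.11 (SE 0.493; adjusted p 0.589), and the pairs-once means were 14.7 ± 7.22 and 54.1 ± 25.8 CPM (SD, n = 3). Its leading peak, chr5:43290073-43290093 on the minus strand, held 61.2% of 85 tags. Nuclear HMGCS1 3'UTR levels were 92.1 ± 6.47 CPM in mock and rose to 290 ± 53.2 CPM (SD, n = 3; limma adjusted p 1.39e-05).

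The HMGCS1 introns split by set. They stood at 64.1 and 34.2 CPM in the JL0388 mock libraries and at 250 and 245 CPM in arsenite, but at 24.6 and 29.3 against 24.8 and 26.1 CPM in JL1024. EdgeR within JL0388 alone called them with an adjusted p of 1.1e-05, a comparison of library pairs that agree within sampling noise. Over both sets limma gave 1.12 with an adjusted p of 0.589. The same introns rose in the nuclear fraction from 203 ± 11.5 to 391 ± 22.0 CPM (SD, n = 3).

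EdgeR within JL1024 alone, also added after seeing the data, called 6 sums, 5 higher and 1 lower with arsenite, so these names were chosen after their values were seen. JUND was among them. The 3'UTR of TRIM71, an RNA-binding ubiquitin ligase of stem cells, stood at 13.2 and 12.6 CPM in JL1024 mock and 44.0 and 72.6 CPM in arsenite, and at 19.7 and 13.7 against 27.7 and 26.7 CPM in JL0388, so the treatments were apart in both sets. The 3'UTR of IGF2BP1, an mRNA-binding protein of fetal and tumour cells, stood at 0 and 2.09 against 19.1 and 40.6 CPM in JL1024 and overlapped in JL0388. RAD54L2 (3'UTR) was at 0 in all 4 mock libraries and at 13.9, 0, 19.1 and 31.9 CPM in arsenite, so that it passed the filter only through arsenite libraries. It held tags in too few libraries for the test over both sets. RNU2-36P, a near-copy of the U2 spliceosomal RNA whose tags could belong to other copies, went from 13.2 and 8.38 to 57.3 and 43.6 CPM in JL1024 and stood at 0 and 6.83 against 0 and 0 CPM in JL0388. The lower one was the snoRNA class of DDX39B, at 28.4 and 56.5 against 7.64 and 2.90 CPM in JL1024 and overlapping in JL0388.

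**Figure D2:**
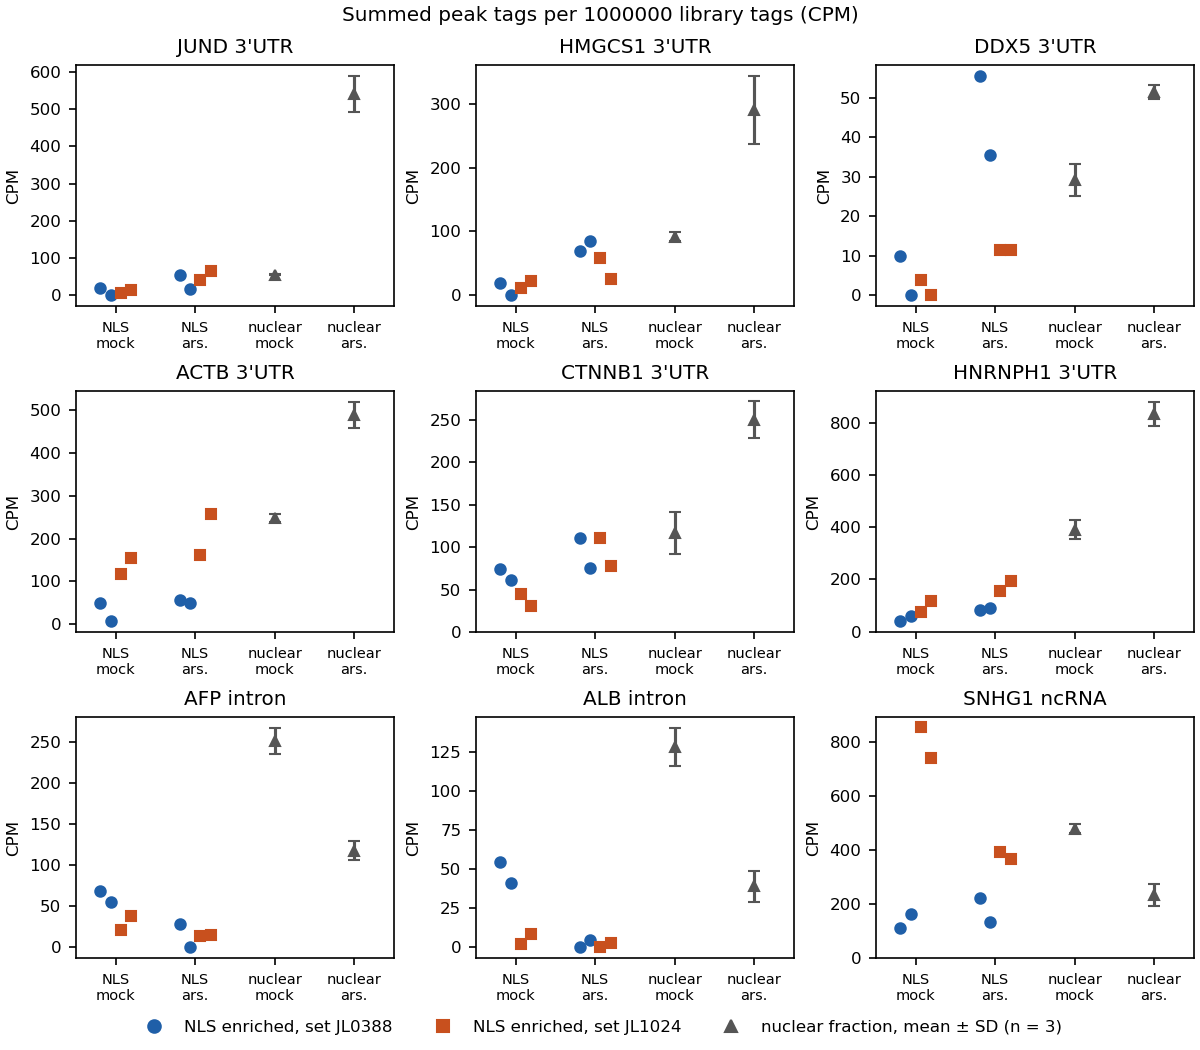
Level (CPM, y axis) of 9 gene and class sums in the NLS enriched libraries (1 point per library, by set) and in the nuclear fraction (triangle and bar, mean and SD of 3 libraries), by treatment (x axis). The 3'UTR panels sit higher on average with arsenite in both preparations and the AFP and ALB introns sit lower, while SNHG1 is lower in JL1024 and in the nuclear fraction and not in JL0388.

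Direction differed by class. Of 1275 3'UTR sums tested, 842 (66.0%) were positive with a median log2 difference of 0.25, against 56.8% and 0.09 over all tested sums. At an unadjusted limma p under 0.05, 113 3'UTRs (8.86%) were higher and 10 (0.784%) lower. Introns, with 2943 sums, were 55.5% positive, and 112 against 49 passed that unadjusted p. Of 51 snoRNA sums 12 were positive, with a median of -0.43, and 10 were lower and 0 higher at the unadjusted p. Sums whose treatments were apart in both sets, in the same direction, numbered 226 higher (4.31%) and 85 lower (1.62%). Among 3'UTRs they were 89 and 12.

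The library sets share no library, and each gave the 3'UTRs a larger positive share than its own background. In JL0388 56.7% of 3'UTR sums were positive against 49.3% of all sums, and in JL1024 68.3% against 60.7%, as the plot of direction by class shows. Gene by gene the sets agreed little: 490 of 1275 3'UTRs were positive in both and 165 negative in both, and Spearman's rho between the sets' log2 differences was 0.092 across 3'UTRs and 0.050 across all 5238 sums. These are values across genes, which are not independent replicates, and most sums rest on few tags per library. Of the snoRNA sums, 22 of 51 were negative in both sets and 0 were positive in both.

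**Figure D3:**
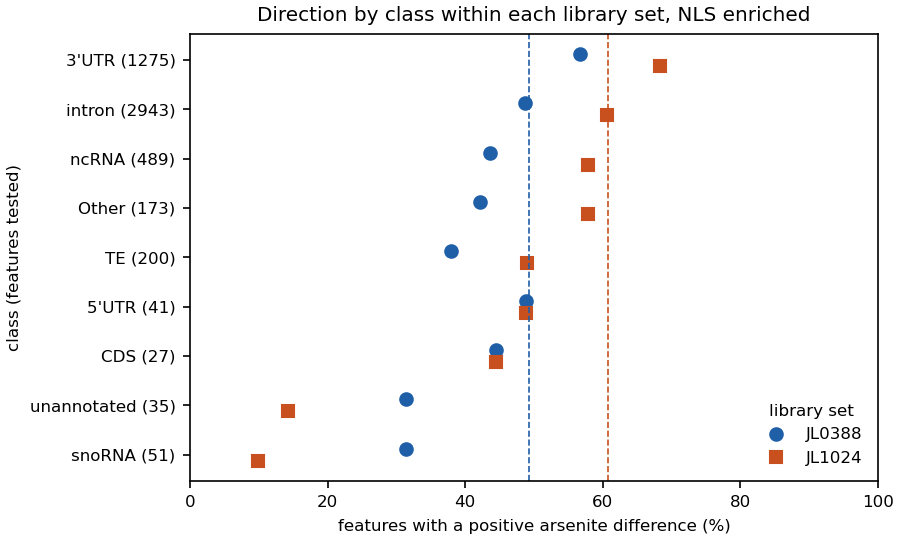
Share of gene and class sums with a positive arsenite difference (%, x axis) in each annotation class (y axis, with the number tested) within JL0388 and within JL1024 of the NLS enriched libraries. Dashed lines give the share over all 5238 sums in each set, 49.3% and 60.7%, and the 3'UTRs lie right of the line in both sets, at 56.7% and 68.3%, while snoRNAs lie left of it.

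The largest positive differences among sums with an unadjusted p under 0.05 and treatments apart in both sets were those of DDX5, PTBP3, HMGCS1, ZNF292 and SKP2, each with a limma adjusted p of 0.589. The 3'UTR of DDX5, an RNA helicase of splicing and transcription, stood at 9.85, 0, 3.78 and 0 CPM in mock and 55.5, 35.7, 11.5 and 11.6 CPM in arsenite, on 0 to 2 and 4 to 8 tags. It rose in the nuclear fraction from 29.2 ± 4.09 to 51.4 ± 1.81 CPM (SD, n = 3; limma adjusted p 0.0127). Introns of PTBP3, a polypyrimidine tract-binding protein, stood at 0, 6.83, 5.67 and 0 against 55.5, 31.2, 7.64 and 17.4 CPM, with no call in the nuclear fraction, where they were at 93.2 ± 7.49 and 84.0 ± 1.69 CPM (SD, n = 3). The 3'UTR of the zinc finger gene ZNF292 was at 0 in all 4 mock libraries and at 13.9, 22.3, 3.82 and 8.71 CPM in arsenite, 11 tags in all, and was tested only through its arsenite tags. The 3'UTR of SKP2, the substrate receptor of an SCF ubiquitin ligase, stood at 9.85, 0, 5.67 and 2.09 against 55.5, 17.8, 9.55 and 23.2 CPM, and rose in the nuclear fraction (limma adjusted p 0.049).

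Among the largest negative differences chosen the same way were those of SEC24B, AFP, SNHG16 and CNKSR3, again each with an adjusted p of 0.589. Introns of SEC24B, a coat protein of transport vesicles, stood at 19.7, 20.5, 7.57 and 4.19 CPM in mock and at 0 in all 4 arsenite libraries, 13 tags in all, and was tested only through its mock tags. The non-coding RNA SNHG16, a snoRNA host, stood at 4.93, 13.7, 51.1 and 27.2 against 0, 0, 13.4 and 2.90 CPM. Introns of CNKSR3 stood at 19.7, 47.8, 11.3 and 14.7 against 0, 13.4, 3.82 and 2.90 CPM. SEC24B, SNHG16 and CNKSR3 were not called in the nuclear fraction, while AFP was.

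AFP and ALB, which encode the plasma proteins alpha-fetoprotein and albumin made by liver cells, stood lower in their introns with arsenite in the mean of each set. The AFP introns stood at 69.0, 54.7, 20.8 and 37.7 CPM in mock and 27.7, 0, 13.4 and 14.5 CPM in arsenite, apart in both sets (log2 difference -1.73, SE 0.506; limma unadjusted p 0.0021, adjusted p 0.589). The ALB introns stood at 54.2, 41.0, 1.89 and 8.38 against 0, 4.46, 0 and 2.90 CPM. The AFP peaks annotated as transposable element stood at 54.2, 20.5, 9.46 and 6.28 against 0, 8.92, 1.91 and 0 CPM. In the nuclear fraction all 3 fell: AFP introns from 252 ± 15.7 to 118 ± 12.03 CPM, ALB introns from 128 ± 12.2 to 39.0 ± 9.88 CPM, and the AFP element peaks from 166 ± 7.03 to 66.1 ± 14.6 CPM (SD, n = 3; limma adjusted p 5.35e-05, 7.34e-05 and 0.000203). The AFP coding sequence, the most abundant hepatocyte sum, was at 34.5, 41.0, 28.4 and 12.6 against 41.6, 22.3, 38.2 and 29.0 CPM, and APOB coding sequence at 14.8, 6.83, 5.67 and 10.5 against 55.5, 22.3, 9.55 and 5.81 CPM. Of 16 hepatocyte sums tested, 9 were positive, and the AFP introns, ALB introns and AFP element peaks were the 3 with an unadjusted p under 0.05, all lower, beside 56.8% positive, 4.85% higher and 1.74% lower over all sums. Of 43 hepatocyte sums tested in the nuclear fraction, 2 rose and 7 fell by limma, beside 4.05 and 1.45% over all sums there. The AFP and ALB introns were named after their values were seen.

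Among known HuR targets with AU-rich 3'UTRs, 21 sums of 15 genes were tested, 15 were positive, and the median log2 difference was 0.47 against 0.09 over all sums. At the unadjusted p, 6 were higher and 0 lower, beside 4.85 and 1.74% over all sums and 8.86 and 0.784% over 3'UTRs, which were 12 of the 21. None passed adjustment. ACTB (beta-actin) and CTNNB1 (beta-catenin) were the most abundant. The ACTB 3'UTR stood at 49.3, 6.83, 117 and 155 CPM in mock and 55.5, 49.0, 162 and 258 CPM in arsenite, with overlap in JL0388. The CTNNB1 3'UTR stood at 73.9, 61.5, 45.4 and 31.4 against 111, 75.8, 111 and 78.4 CPM, with every arsenite library above every mock library (0.82, SE 0.282; limma adjusted p 0.617). Its leading peak was chr3:41240035-41240055 on the plus strand, and that of ACTB, with 82.4% of 336 tags, chr7:5527610-5527630 on the minus strand.

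Others that were higher at the unadjusted p were named after their values were seen. They included the introns of CTNNB1 and the 3'UTRs of DUSP1, a MAP kinase phosphatase, and ZFP36L1, an AU-rich element binding protein that promotes mRNA decay. Of this list, 12 of the 53 sums tested in the nuclear fraction rose and 2 fell by limma. Over all 22212 sums there, 4.05% were higher and 1.45% lower, and 750 of 6001 3'UTRs were higher. ACTB rose there from 249 ± 9.69 to 490 ± 29.9 CPM and CTNNB1 from 116 ± 25.1 to 250 ± 21.6 CPM (SD, n = 3; limma adjusted p 1.67e-05 and 0.000407).

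Immediate early genes are transcribed within minutes of a stimulus and carry unstable mRNAs. All 6 sums tested, 5 of them 3'UTRs, were positive, with a median log2 difference of 1.02. An unadjusted limma p under 0.05 was reached by 3, JUND, DUSP1 and FOS. Over all sums 56.8% were positive and 4.85% higher, and over 3'UTRs 66.0% were positive and 8.86% higher. DUSP1 and FOS were named after their values were seen. The FOS 3'UTR was at 0 in all 4 mock libraries and at 27.7, 13.4, 1.91 and 2.90 CPM in arsenite, 7 tags in all. It was tested only through its arsenite tags, so its place among the 6 and the 3 is no sign of direction. ATF3 introns, the other abundant sum, stood at 34.5, 27.3, 26.5 and 46.1 against 41.6, 17.8, 47.8 and 61.0 CPM, with overlap in JL0388. The nuclear fraction had 10 of 23 sums of this list higher and 0 lower by limma, among them FOS and ATF3, beside 4.05 and 1.45% over all sums there and 750 higher of 6001 3'UTRs. Of its 20 genes, 7 had no tag in the NLS enriched libraries, JUNB and IER3 included.

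Nuclear splicing factors gave 50 tested sums, of which 35 were positive, with a median of 0.18, 9 higher and 1 lower at the unadjusted p. The HNRNPC peaks annotated as transposable element, among the 9, had 0 tags in every mock library and 6 in arsenite. They were tested only through arsenite tags, so their place among the 35 and the 9 is no sign of direction. Over all sums 56.8% were positive and 4.85% higher, and over 3'UTRs, 23 of the 50, 66.0% were positive and 8.86% higher. The HNRNPH1 3'UTR, the most abundant, stood at 39.4, 61.5, 75.7 and 117 CPM in mock and 83.2, 89.2, 157 and 195 CPM in arsenite, apart in both sets (0.81, SE 0.253; limma adjusted p 0.589). It rose in the nuclear fraction from 390 ± 37.1 to 832 ± 46.0 CPM (SD, n = 3). The 3'UTR of HNRNPA1, an hnRNP protein of splicing, stood at 4.93, 6.83, 3.78 and 6.28 against 27.7, 26.7, 17.2 and 29.0 CPM, with every arsenite library above every mock library, while the nuclear fraction held 60.8 ± 13.1 and 56.3 ± 3.80 CPM (SD, n = 3; limma adjusted p 0.814). DDX17, a helicase close to DDX5, had a higher 3'UTR level, 113, 68.3, 5.67 and 10.5 against 166, 152, 21.0 and 34.8 CPM, and a lower intron level, 128, 157, 5.67 and 31.4 against 41.6, 44.6, 13.4 and 11.6 CPM. The DDX17 introns were the 1 lower sum and fell in the nuclear fraction too (limma adjusted p 0.000158). HNRNPA1, DDX17 and the HNRNPC element peaks were named after their values were seen. RBM39 introns, second in abundance, stood at 148, 144, 13.2 and 25.1 against 139, 152, 26.8 and 23.2 CPM.

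Lists tied to the stress itself held few tested sums, read beside 56.8% positive, 4.85% higher and 1.74% lower over all sums. Stress granule proteins had 11 of 27 sums positive, with 1 higher and 1 lower at the unadjusted p. The lower one, PABPC1 introns, had 7 tags in all and none in an arsenite library. It was tested only through its mock tags and so had to be lower. The most abundant sums of this list, ATXN2 introns and TIAL1 3'UTR, had log2 differences of -0.08 and -0.02 (limma adjusted p 0.974 and 0.995). Heat shock and chaperone genes had 9 of 13 positive and 2 higher, the HSP90AA1 3'UTR at 0, 0, 0 and 2.09 against 13.9, 26.7, 9.55 and 2.90 CPM and the HSPH1 introns at 0, 0, 1.89 and 0 against 41.6, 22.3, 0 and 2.90 CPM. Each of these 2 had tags in only 1 mock library. They passed the filter mainly through arsenite libraries and are weak signs of direction. HSP90AA1 and PABPC1 were named after their values were seen. NRF2 and metal response genes had 9 of 11 positive and the integrated stress response 4 of 5, with none past the unadjusted p in either list. NFE2L2 and TXNRD1 introns had differences of 0.51 and 0.21, and the PPP1R15B 3'UTR 0.66 (limma adjusted p 0.803, 0.949 and 0.803).

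Long noncoding RNAs and ribosomal protein genes had fewer positive than negative sums. Of 11 long noncoding sums 3 were positive, with a median of -0.37, and 2 were lower at the unadjusted p, beside 1.74% over all sums and 12 of 489 in the ncRNA class, of which 52.6% were positive. The 2 were GAS5 and SNHG5, named after their values were seen. Both host snoRNAs in their introns, as SNHG1 does. SNHG1 stood at 113, 164, 857 and 743 CPM in mock and 222, 134, 394 and 366 CPM in arsenite, with the treatments apart in JL1024 and overlapping in JL0388 (-0.37, SE 0.242; limma adjusted p 0.776). Its leading peak at chr11:62855309-62855329 on the minus strand held 337 and 362 CPM in JL1024 mock, 193 and 165 CPM in JL1024 arsenite, and no tag in JL0388. GAS5 stood at 88.7, 103, 577 and 500 against 125, 71.3, 269 and 229 CPM. Of 13 sums of this list tested in the nuclear fraction 2 rose and 4 fell, beside 4.05 and 1.45% over all sums there, and SNHG5 was not called (limma adjusted p 0.123). SNHG1 fell there from 480 ± 15.9 to 233 ± 41.9 CPM and GAS5 from 494 ± 44.4 to 201 ± 27.6 CPM (SD, n = 3; limma adjusted p 0.000143 and 1.92e-05).

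MALAT1, a nuclear speckle RNA and the sum with the highest mean over the 8 libraries, though not the highest within JL1024, showed no difference beyond its spread. It stood at 1306, 1155, 479 and 473 CPM in mock and 1345, 1137, 493 and 595 CPM in arsenite (0.10, SE 0.150; limma adjusted p 0.920). One peak, chr11:65501022-65501042 on the plus strand, held 48.4% of its 1728 tags. The other 9 sums of highest mean level were LINC02476, CCDC200 and SNHG1 (non-coding RNA), introns of ARHGAP5, PLCB1, MIR3171HG, GRIK2 and SOX5, and peaks on mitochondrial MT-RNR2. Their log2 differences ran from -0.37 for SNHG1 to 0.62 for GRIK2 introns, with limma adjusted p from 0.627 to 0.959. GRIK2, a glutamate receptor gene, was at 473, 390, 30.3 and 33.5 against 527, 566, 55.4 and 69.7 CPM, apart in both sets, while the nuclear fraction held 32.3 ± 5.38 and 33.5 ± 5.48 CPM (SD, n = 3). The gap between the sets in GRIK2 introns was wider than that between the treatments.

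Within the snoRNA class the tags carry the name of the host gene. In the host genes of ribosomal proteins RPS12 and RPL7A, the snoRNA sums stood at 4.93, 34.2, 216 and 209 CPM in mock against 55.5, 13.4, 70.7 and 98.7 CPM in arsenite, and at 14.8, 41.0, 163 and 174 against 0, 31.2, 80.3 and 58.1 CPM. Both were apart in JL1024 and overlapped in JL0388, where 0 to 7 tags were counted per library. The snoRNA sum of HSPA9 had no tag in JL0388 and stood at 47.3 and 44.0 against 19.1 and 8.71 CPM in JL1024. In the nuclear fraction the RPS12 sum fell from 200 ± 19.5 to 44.9 ± 0.962 CPM and the RPL7A sum from 142 ± 13.04 to 47.0 ± 10.9 CPM (SD, n = 3; limma adjusted p 1.24e-06 and 7.92e-05). Of 21 tested sums of cytosolic ribosomal protein genes, 6 were positive and 1, the RPL7A snoRNA sum, was lower at the unadjusted p, beside 56.8% positive and 1.74% lower over all sums and 10 of 51 lower in the snoRNA class. Of 129 in the nuclear fraction, 1 rose and 14 fell, beside 4.05 and 1.45% over all sums there and 26 lower of 76 in the snoRNA class.

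The direction in the NLS enriched libraries was then set against the nuclear fraction, which shares no library with them. There limma called 1221 of 22212 sums (5.5%), 900 higher (4.05%) and 321 lower (1.45%). Of these, 702 were also tested in NLS, and 478 (68.1%) had the same sign in both, against 2807 of 5181 (54.2%) of all sums tested in both. Spearman's rho between the log2 differences was 0.18 across those 5181 sums, a description with no test. Of 482 sums higher in the nuclear fraction, 345 (71.6%) were positive in NLS, and 66 had an unadjusted p under 0.05 there in the same direction and 3 in the other, beside 4.85 and 1.74% over all sums and 8.86 and 0.784% over 3'UTRs, which were 428 of the 482. Of 220 lower in the nuclear fraction, 133 (60.5%) were negative in NLS, 18 with an unadjusted p in that direction and 3 in the other.

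By class, 3'UTRs made up most of these sums. The nuclear fraction had 750 3'UTRs higher and 23 lower of 6001, and 307 of the 428 higher ones tested in NLS (71.7%) were positive there, near the 66.0% of all 3'UTRs tested in NLS. Their median log2 difference was 0.42 in NLS and 1.35 in the nuclear fraction, on scales with different pseudocounts. Of 25 snoRNA sums lower in the nuclear fraction and tested in NLS, 20 (80%) were negative, near the share of the class, where 12 of 51 were positive. Of 138 intron sums lower in the nuclear fraction, 78 (56.5%) were negative in NLS, with a median of -0.09, while 55.5% of all introns tested in NLS were positive. Within JL0388 alone the same-sign share of called sums was 61.95% and within JL1024 alone 66.6%.

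**Figure D4:**
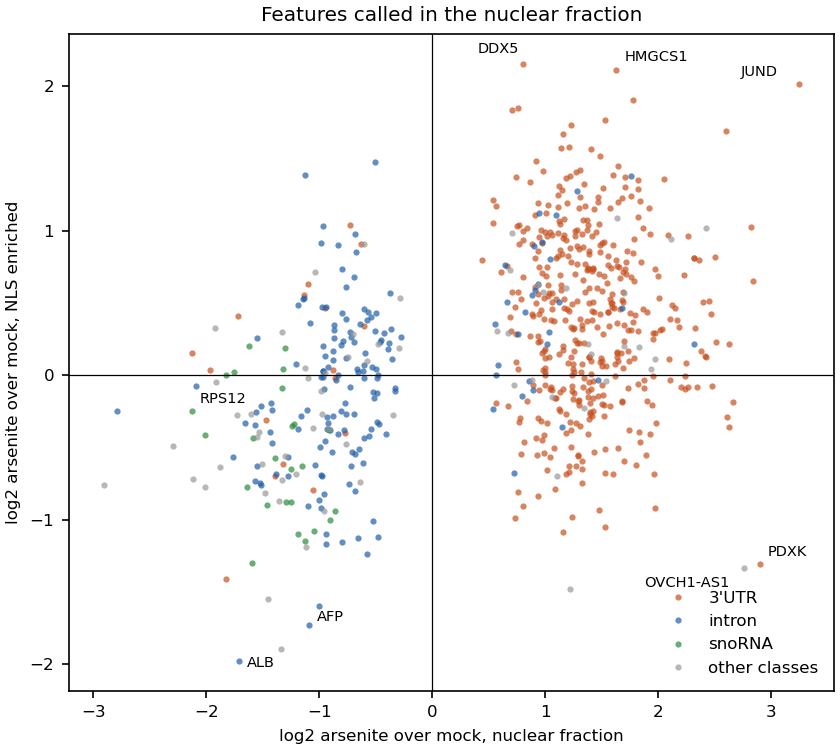
Log2 arsenite difference in the NLS enriched libraries (y axis) against that in the nuclear fraction (x axis) for the sums called by limma in the nuclear fraction and tested in both, coloured by class. Of the sums on the right 71.6% lie above 0, JUND and HMGCS1 among the highest, PDXK and OVCH1-AS1 lie at the lower right, and of the sums on the left 60.5% lie below 0.

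The sums with the largest differences in the nuclear fraction did not all follow in NLS. Of the 5 largest rises there among sums also tested in NLS, JUND, HNRNPH2 and RNF168 were positive in NLS and the PDXK 3'UTR and OVCH1-AS1 negative. HNRNPH2 and RNF168 rested on 0 to 4 tags per NLS library, at 14.8, 0, 0 and 0 against 0, 13.4, 5.73 and 5.81 CPM and at 0, 0, 1.89 and 0 against 13.9, 0, 7.64 and 2.90 CPM. Of the 5 largest falls chosen the same way, SKA2, RNU5B-1 (a U5 spliceosomal RNA with near-identical copies), the RPS12 snoRNA sum and CROCC introns were negative and the TXN 3'UTR positive in NLS, with log2 differences of -0.76, -0.49, -0.25, -0.25 and 0.15. None of these 5 had an unadjusted p under 0.05 in NLS. The CROCC, TXN, SKA2 and RNU5B-1 sums rested on 4, 5, 6 and 14 NLS enriched tags, so their signs say little. The RPS12 snoRNA sum was positive in JL0388 alone (0.72).

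The difference between the NLS and nuclear responses was itself tested with limma over 11538 sums, and 3 passed (0.026%), 1 of which, RXRA, had too few NLS tags for the NLS test. PDXK, which encodes pyridoxal kinase of vitamin B6 metabolism, had a 3'UTR level of 4.93, 6.83, 15.1 and 14.7 CPM in mock and 0, 0, 5.73 and 2.90 CPM in arsenite, while the nuclear fraction rose from 9.09 ± 3.48 to 71.0 ± 9.61 CPM (SD, n = 3). The difference of the log2 responses was -4.52 (SE 0.712; limma adjusted p 0.0106). OVCH1-AS1, a long noncoding RNA, stood at 4.93, 13.7, 9.46 and 2.09 against 0, 0, 1.91 and 0 CPM and at 13.2 ± 4.92 against 90.3 ± 3.96 CPM in the nuclear fraction (SD, n = 3; difference -4.55, adjusted p 0.0263). RXRA, a nuclear receptor that pairs with other receptors, had 3 tags in the mock and 0 in the arsenite NLS libraries and rose in the nuclear fraction from 0.322 ± 0.557 to 10.2 ± 2.55 CPM (SD, n = 3; difference -3.71, adjusted p 0.0326). With tags in 3 of 8 NLS libraries it was not tested in NLS alone and entered here through the nuclear libraries where it was high, and its NLS zeros allow up to 41.6 CPM in the shallowest library. In the inputs of the APEX-NLS line PDXK went from 5.56 to 13.5 CPM in JL0388 and from 3.05 to 5.61 CPM in JL1024, and OVCH1-AS1 from 8.65 to 24.4 and from 4.96 to 6.73 CPM. With the replicate number as a block 0 sums passed. EdgeR called 8, which included PDXK and OVCH1-AS1 but not RXRA, and of which 2, RAD54L2 and RNA5S14 (a 5S rRNA with many near-copies), ran the other way, RAD54L2 with no mock tag in NLS; these 2 were named after their values were seen. Leaving out mock replicate 3 or arsenite replicate 4 left 1. The APEX construct, hydrogen peroxide, biotin phenol, fractionation, streptavidin capture and library set all differ between both preparations, so their part in these differences cannot be told apart.

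Against the cytoplasmic APEX-NES line, enriched in the same way in the same sets, the difference of responses was tested over 2762 sums. Limma called 0 (0%), with 150 at an unadjusted p under 0.05, and edgeR also called 0, with 166. The NES libraries were shallow, between 2981 and 21738 tags in peaks, and the size of difference they could show was not tested. The 3'UTR share of the NES enriched libraries was 7.92 points higher with arsenite in JL0388 and 0.763 points in JL1024, beside 2.67 and 5.19 points in NLS.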

How the data were processed

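HuR CLIP-seq tags were measured in 58 libraries in 16 groups, of which the 8 NLS enriched libraries are described here. The authors deposited 1 table of peak coverage whose signal is tags divided by the library's total tags. Bowtie2, SAMtools, bedtools, HOMER and GRCh38.p14 are named in the submitters' processing notes, without versions. Duplicate removal, peak settings and the base of the coordinates are not given in the sources used here. Whole tags were recovered from 100% of values (tolerance 0.02). Of 395471 lines 8257 repeats were dropped, and 84358 peaks without a gene name, holding 26.6% of NLS enriched tags, entered class shares only.

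Tags were summed per gene name and class, scaled to CPM, and tested on log2(CPM + pseudocount) with limma 3.58.1 (lmFit, eBayes with trend; treatment plus library set), the pseudocounts being 3.68 for NLS, 0.888 for the nuclear fraction, 1.90 for NLS against nuclear and 5.88 for NLS against NES. EdgeR 4.0.16 (quasi-likelihood, R 4.3.3) on recovered tags was the alternative, calling 2 sums in NLS. Class shares were compared by exact permutation tests in Python 3.11.15 with scipy 1.17.1, two-sided. The programs were tested on simulated data. Other alternatives changed the scaling, filter, pseudocount, library set and replicates.

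Intervals and floors cover counting error only. A count of 0 allows up to 3 tags, which is 5.67 to 41.6 CPM depending on the library. Libraries with the same replicate number did not deviate together (correlations -0.0077 to 0.011), so the numbers were not taken to pair them. Within JL0388 the gene sums agree within sampling noise, while 26 single peaks of the mock pair did not (chi-square per degree of freedom 1.97, p 0.0027).

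Named are the 10 sums of highest mean, the 5 largest differences each way with unadjusted p under 0.05 and no overlap in either set, the 5 largest each way among those called in the nuclear fraction, and the 2 most abundant of each gene list, with at most 1 sum per gene in each choice but the first. Other names are said to have been chosen after their values were seen. Some sums that these rules select are not reported here. The members and lists were chosen with earlier results of these data known.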

Additional observations from a re-analysis of the deposited data

Results flagged for a closer look

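In 146 groups of 4 libraries with any spread, of 154 examined, 11 values stood apart from the other 3 by their gap over the group's range. Chance marks about 1 in 20 groups of continuous values. A group with tags in only 1 library is always marked, so that rate does not apply to sums with few tags. The 3'UTR share of mock library 3 was the lowest of its group at 8.35%. The others rest on few tags. Among mock libraries the highest value was 14.8 CPM for the HNRNPH2 3'UTR, 1.89 CPM for the RNF168 3'UTR, 1.89 CPM for HSPH1 introns, 4.93 CPM for COL3A1 introns, 54.2 CPM for CTNNB1 introns, 4.93 CPM for the DUSP1 3'UTR, 2.09 CPM for the HSP90AA1 3'UTR and 2.09 CPM for the HNRNPA2B1 5'UTR. Among arsenite libraries it was 1.91 CPM for OVCH1-AS1 and 1.91 CPM for SKA2.

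Limma's test of the difference between the arsenite responses of the NLS enriched libraries and the nuclear fraction passed in 3 sums, and in 0 with the replicate number as a block. The log2 difference was -4.55 for OVCH1-AS1, -4.52 for the PDXK 3'UTR and -3.71 for the RXRA 3'UTR. RXRA had 3 NLS enriched tags, entered the test through the nuclear libraries where it was high, and was not called by edgeR. In PDXK 90.5% of the 21 NLS enriched tags lay in 1 peak, chr21:43757998-43758018.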

How the results depend on the processing

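Depth limits the single genes: 1 tag in the shallowest library, arsenite 1, is worth 13.9 CPM, so its zeros allow up to 41.6 CPM. The sums named and tested, 65 in number, were recomputed under alternatives 1447 times, of which 1376 kept direction and side of the threshold, 9 passed it and 62 turned sign, in 21 sums. The cause was not tested. The numbers did not pair the libraries, and with replicate as a block limma called 0 sums in NLS, 1227 in the nuclear fraction, 0 for NLS against NES and 0 for NLS against nuclear, where 3 passed without it. The 3'UTR share difference kept its direction and lay between 3.34 and 4.20 points with each library left out.

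In NLS, where limma called 0, edgeR called 2, limma without a filter on low values 1, edgeR within JL0388 1 and edgeR within JL1024 6; leaving out each library gave 0 to 3 (2 without mock 3, 3 without mock 4, 1 without arsenite 4). In the nuclear fraction single peaks gave 217 calls, 755 with edgeR, and left-out libraries 725 to 1438. The calls with a library left out held 586 to 1010 higher and 138 to 489 lower sums, beside 900 and 321. For NLS against nuclear edgeR gave 8 and left-out libraries 1 to 3. The intron share difference was -2.28 points in JL0388 alone and -3.73 to 5.53 with libraries left out. For unannotated tags it was 0.0834 as a share of the library total and -1.29 to 0.248 with libraries left out. For transposable elements it was 0.0208 in JL1024 alone, 0.0244 as a share of the library total and -0.516 to 0.444 with libraries left out. For ncRNA it was -6.27 to -0.413 and for snoRNA -2.29 to -0.582 with libraries left out. The share of tags in peaks differed by -0.876 to 2.84 points with libraries left out. The same-sign share was 61.95% within JL0388 for called sums and 52.3% for all sums non-zero in every library.

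Signs turned on the log2 scale as follows. Dividing by tags in peaks gave -0.0269 for MALAT1, -0.0338 for LINC02476 and -0.0225 for MT-RNR2. EdgeR with TMM gave -0.127 for MALAT1, -0.111 for LINC02476, -0.0428 for ARHGAP5, -0.0152 for CCDC200, -0.0937 for PLCB1, -0.0405 for MIR3171HG, -0.0405 for MT-RNR2, -0.0118 for SOX5, 0.0654 for CROCC and -0.0115 for RBM39. JL0388 alone gave -0.0949 for LINC02476, 0.33 for SNHG1, -0.0744 for PLCB1, -0.0509 for HNRNPH2, 0.72 for RPS12 snoRNA, -0.13 for ATF3, -0.0370 for PPP1R15B, -0.00634 for RBM39 and -0.25 for AFP coding sequence. EdgeR in JL0388 gave -0.0152 for MALAT1, -0.0663 for LINC02476, 0.23 for SNHG1, -0.14 for PLCB1, 0.47 for RPS12, -0.12 for NFE2L2, -0.38 for ATF3, -0.17 for PPP1R15B and -0.44 for AFP. JL1024 alone gave 0.57 for ATXN2, 0.0810 for TIAL1, -0.69 for TXNRD1 and -0.0426 for APOB, and edgeR there 0.59, 1.03, -0.91 and -0.0133. Pairs counted once gave 0.10 for ATXN2, 0.0454 for TIAL1 and -0.0639 for TXNRD1. EdgeR gave 0.18 for CROCC and 0.12 for TIAL1, and with JL0388 pairs summed 0.20 and 0.23. With libraries left out, the range was -0.0755 to 0.49 for AFP coding sequence, -0.33 to 0.19 for ATXN2, -0.13 to 0.68 for CCDC200, -0.32 to 0.12 for CROCC, -0.19 to 0.37 for MT-RNR2, -0.00755 to 0.29 for RBM39, -0.90 to 0.0390 for RPS12, -0.42 to 0.32 for TIAL1 and -0.16 to 0.50 for TXNRD1. EdgeR within a set, on summed pairs and on single peaks were added after seeing the data.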
